A study of Saccharomyces cerevisiae with 24 samples.

Results

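Binding of the yeast transcription factor Yrr1 was compared between cells that carry the S96-I775E allele of YRR1 and cells that carry the YJM789 allele, both growing in rich medium (YPD). The comparison uses 6 of the 18 chromatin immunoprecipitation (ChIP) libraries of the series, 3 for each allele, and was selected by allele and medium from the sample titles. All cells were Saccharomyces cerevisiae strain S96 with its own YRR1 deleted (yrr1Δ), into which a Myc-tagged allele had been transformed, and anti-Myc antibody was used for the ChIP. The S96-I775E allele is the laboratory strain's own allele with an isoleucine-to-glutamate change, I775E, and the YJM789 allele comes from another yeast strain. Both groups were subcultured for 2.5 h without drug, beside sister subcultures in 0.25 µg/ml 4-nitroquinoline-N-oxide (4NQO). Each allele in YPD has 1 input library of its own, so a difference between inputs and a difference between alleles cannot be told apart. The design text and the growth protocol disagree on whether every library had a culture of its own, so p-values reflect how far libraries of a group lie apart, some of which can be technical. The labels do not say how many transformants stand behind each allele, and an untagged strain was not analysed here.

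Yrr1 is a zinc cluster protein, a family of fungal transcription factors that read short DNA sites containing CCG. It is known for switching on genes of multidrug resistance, among them SNQ2, which encodes a membrane pump that exports 4NQO, and it acts on its own gene as well. Sites in promoters of such pumps and transporters are the usual places to look for Yrr1.

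The DNA under the strongest points is shown for the sites on which the comparison turns. At the 4 regions where MACS2 listed a peak for 2 or more of the 3 libraries of both alleles, and at the YRR1 promoter, 200 bases around the strongest point (the median position over the 18 ChIP libraries) read as follows on the plus strand. The reference is RefSeq R64, whose coordinates are those of sacCer3. Capitals mark each match, on either strand, to the Yrr1 recognition pattern searched, which is A or T, then CCG, then C or T, then G or T at a pair of positions, then A or T at a pair of positions.
IRT1: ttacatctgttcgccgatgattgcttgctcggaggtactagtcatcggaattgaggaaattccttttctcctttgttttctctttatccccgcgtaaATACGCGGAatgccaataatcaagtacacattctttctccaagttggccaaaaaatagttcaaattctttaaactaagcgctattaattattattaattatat
SNQ2: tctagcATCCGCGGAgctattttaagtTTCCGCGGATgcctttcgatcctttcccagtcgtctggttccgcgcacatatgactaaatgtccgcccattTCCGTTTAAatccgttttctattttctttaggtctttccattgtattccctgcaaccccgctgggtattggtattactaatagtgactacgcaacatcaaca
SNG1: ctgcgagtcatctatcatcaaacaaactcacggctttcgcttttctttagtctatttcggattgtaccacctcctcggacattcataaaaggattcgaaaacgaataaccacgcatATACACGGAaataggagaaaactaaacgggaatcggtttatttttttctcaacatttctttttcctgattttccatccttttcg
APD1: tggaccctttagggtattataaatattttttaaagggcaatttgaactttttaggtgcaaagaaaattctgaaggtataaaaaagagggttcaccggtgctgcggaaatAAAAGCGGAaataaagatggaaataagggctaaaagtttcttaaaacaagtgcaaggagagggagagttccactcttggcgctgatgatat
YRR1: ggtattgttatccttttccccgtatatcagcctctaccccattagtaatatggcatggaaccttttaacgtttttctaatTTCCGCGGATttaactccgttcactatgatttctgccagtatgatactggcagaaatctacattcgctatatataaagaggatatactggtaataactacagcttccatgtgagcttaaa

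The IRT1 window lies at chrX:607252-607451. Its strongest point, 607352, falls inside IRT1 (YNCJ0028C, chrX:605936-607424, minus strand), 72 bp from that gene's 5′ end. IRT1 is a noncoding RNA transcribed across the promoter of IME1, the regulator that starts meiosis. The only match, TCCGCGTAT on the minus strand, was centred 1 base from the strongest point. The SNQ2 window (chrIV:465307-465506) is 512 bp upstream of the SNQ2 start codon (YDR011W) at its strongest point, and also 24 bp from the start of YDR010C on the other strand. It held 4 matches, of which a pair overlap on opposite strands, and TCCGTTTAA was centred 2 bases from the strongest point. The SNG1 window (chrVII:894365-894564) is 325 bp upstream of SNG1 (YGR197C), a gene named for resistance to nitrosoguanidine, and TCCGTGTAT lay 20 bases away. The start codon of YPP1 (YGR198W), on the other strand, is nearer at 228 bp. The APD1 window (chrII:544649-544848) is 279 bp upstream of APD1 (YBR151W), and TCCGCTTTT lay 13 bases away. Here TBS1 (YBR150C), on the other strand, has the nearer start codon, at 256 bp. The YRR1 window (chrXV:642172-642371) is 280 bp upstream of YRR1 itself (YOR162C), with an overlapping pair of matches 15 and 16 bases from the strongest point. Of 1691 windows of this length at nuclear regions of the table, 115 (6.80%) hold a match, as do 402 of 6001 nuclear promoters (6.70%, the 200 bases before a start codon). A match is a description of the letters, not proof of a site.

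The Yrr1 signal at IRT1 was 2.33-fold lower for S96-I775E than for YJM789, while the difference at SNQ2 was smaller and did not pass the test. The measure is the rise, the ChIP minus input coverage at the strongest point less the mean of its surroundings. At IRT1 the rise was 94.4, 104 and 98.0 in the S96-I775E libraries, against 215, 228 and 252 in the YJM789 libraries. The groups did not overlap, and the highest S96-I775E library stood below every YJM789 library. The log2 difference, S96-I775E minus YJM789, was −1.22 ± 0.11 (SE), with an adjusted p of 1.59e-08 by limma with Benjamini-Hochberg adjustment. The 95% interval of the ratio ran between 0.368 and 0.503. The surroundings were near 0 for both alleles, at 3.90 ± 1.89 for S96-I775E and 0.174 ± 2.34 for YJM789 (SD, n = 3), so the difference lay in the strongest point itself, 103 ± 6.14 for S96-I775E and 232 ± 19.0 for YJM789.

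The deposited MACS2 lists showed the same order at IRT1. The authors' fold enrichment over local background was 2.26, 2.41 and 2.22 for S96-I775E, against 3.91, 3.93 and 4.41 for YJM789. The summit pileup was 103, 110 and 101 for S96-I775E, against 198, 189 and 216 for YJM789. Each exact two-sided permutation test over libraries gave p = 0.1, the smallest that 3 against 3 allows. For comparison, cells with the unchanged S96 allele in YPD had an IRT1 rise of 327, 335 and 365, above all 6 libraries compared here.

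**Figure D1:**
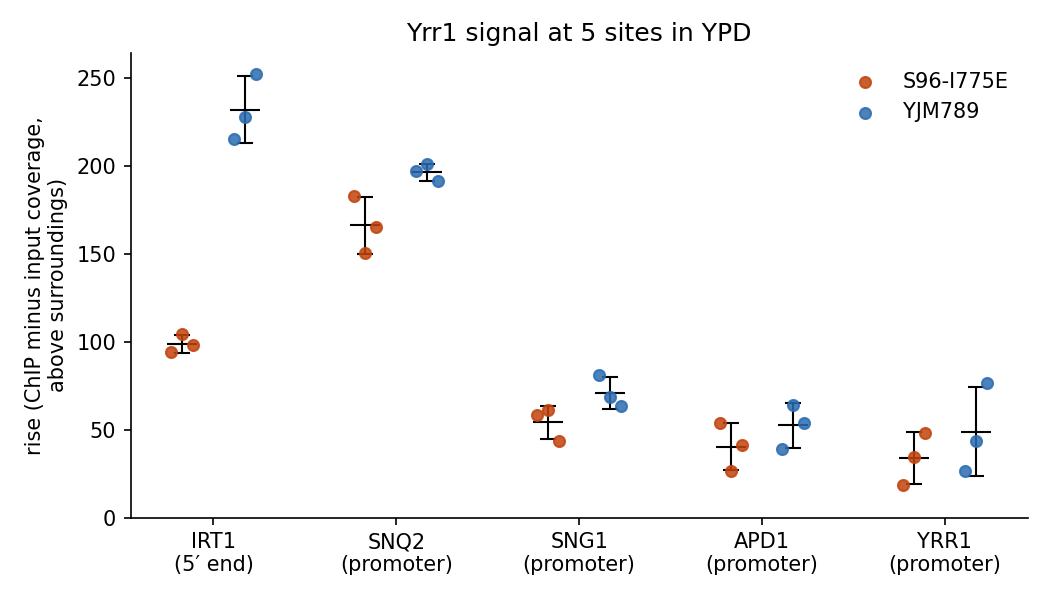
Rise per library (vertical axis, coverage units) at 5 sites in YPD, S96-I775E left and YJM789 right at each site; bars are the mean and SD of n = 3 libraries. At IRT1 the 3 S96-I775E libraries lie at 94.4 to 104 and the 3 YJM789 libraries at 215 to 252; at SNG1, APD1 and YRR1 the groups lie closer together.

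At the SNQ2 promoter the rise was 183, 150 and 165 for S96-I775E, against 197, 201 and 191 for YJM789. These groups did not overlap either, but the log2 difference was −0.24 ± 0.09 and did not pass the test (adjusted p = 0.139, limma). Over 17 alternatives the adjusted p ran between 0.00865 and 0.674, and 2 of them passed. The 95% interval of the ratio, before adjustment for the number of regions, was 0.745 to 0.957. MACS2 fold enrichments at SNQ2 were 3.62, 3.35 and 3.17 for S96-I775E, against 3.68, 3.75 and 3.75 for YJM789.

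The balance between IRT1 and SNQ2 therefore differed between the alleles within each library. The rise at IRT1 divided by that at SNQ2 was 0.516, 0.695 and 0.593 for S96-I775E, against 1.09, 1.14 and 1.32 for YJM789. IRT1 was the lower of these sites in every S96-I775E library and the higher in every YJM789 library. The exact permutation p was 0.1, the smallest possible, and the ratio of MACS2 folds gave 0.623, 0.719 and 0.701 against 1.06, 1.05 and 1.18. The rise at SNG1 divided by that at SNQ2 was 0.329 ± 0.0713 for S96-I775E and 0.361 ± 0.0436 for YJM789 (SD, n = 3; exact permutation p = 0.4).

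The SNG1 promoter had a rise of 58.2, 60.9 and 43.6 for S96-I775E, against 81.0, 68.5 and 63.3 for YJM789. Each S96-I775E library was below each YJM789 library, with a log2 difference of −0.39 ± 0.21 that did not pass (adjusted p = 0.379, limma). The APD1 promoter had 53.6, 26.5 and 41.0 for S96-I775E, against 39.2, 64.3 and 53.8 for YJM789, and here the groups overlapped (−0.40 ± 0.33, adjusted p = 0.605, limma). The YRR1 promoter had 18.8, 34.6 and 48.4 for S96-I775E, against 26.6, 43.4 and 76.4 for YJM789. Those values overlapped as well, and the log2 difference was −0.48 ± 0.35 (adjusted p = 0.544, limma). The strongest point there was at 67.1, 65.3 and 83.1 for S96-I775E, against 64.5, 71.7 and 75.2 for YJM789. The surroundings were at 48.3, 30.7 and 34.7 for S96-I775E, against 37.9, 28.3 and −1.22 for YJM789. MACS2 listed a peak at the YRR1 promoter in 3 of 3 S96-I775E libraries, with folds of 1.73, 1.55 and 1.80, and in 1 of 3 YJM789 libraries, with a fold of 1.46. A region inside YRR1 had a rise of 24.0, 17.03 and 28.8 for S96-I775E, against 19.9, 17.7 and 24.8 for YJM789 (adjusted p = 0.906, limma). The 95% intervals of the ratio at SNG1, APD1 and the YRR1 promoter were 0.568 to 1.03, 0.476 to 1.21 and 0.433 to 1.18.

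A list of Yrr1 and pleiotropic drug resistance targets had 8 tested regions at a promoter or gene body, of which 0 were higher and 1, IRT1, was lower, beside 1.48% higher and 0.667% lower over all 1350 tested regions. IRT1 is no drug resistance gene and was put on the list as a Yrr1 site with earlier results of these data known. The log2 difference was negative at 7 of the 8, beside 737 of all 1350, and the median was −0.35, beside −0.05 over all. Without IRT1, 0 of 7 were higher or lower, 6 of 7 were negative and the median was −0.31. The positive one was the region inside YRR1, and a further region that only lies nearest to PDR5 had a log2 difference of 0.21 ± 0.25 (adjusted p = 0.753, limma). Other members of the list, the polyamine transporter TPO1 (−0.31 ± 0.37) and the body of the drug pump gene PDR5 (−0.01 ± 0.39), had adjusted p-values of 0.753 and 0.995 by limma.

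Over the whole table, 20 of 1350 tested regions (1.48%) were higher for S96-I775E and 9 (0.667%) were lower, at an adjusted p under 0.05. At an unadjusted p under 0.05 there were 206 by the same limma fit. The libraries did not overlap at any of the 29 regions; over all tested regions they did not overlap at 139 (10.3%) with S96-I775E higher and at 170 (12.6%) with S96-I775E lower. The higher regions were 10 nuclear tRNA genes, 5 mitochondrial regions, the 2-micron plasmid, the ribosomal RNA gene repeat and 3 further nuclear regions. The lower ones were IRT1, 2 tRNA gene regions and 6 others. A MACS2 peak in at least 2 libraries of the allele with the larger rise stood at 2 of the 20 higher regions, EMT1 and YNCO0018W, and at 1 of the 9 lower regions, IRT1. The opposite listing, more input than ChIP, was found for 2 or more S96-I775E libraries at 7 of the 20 higher regions. These were the 5 mitochondrial regions, the 2-micron plasmid and the ribosomal RNA gene repeat. At the 5 mitochondrial regions it was also found for all 3 YJM789 libraries. Among the 9 lower regions, 1 had it for 2 or more YJM789 libraries, the region near YHR007C-A. Leaving out 1 library at a time left 9 to 18 higher and 1 to 4 lower regions. The call held with each library left out at 10 regions, which were IRT1, EMT1, PFK2, the ribosomal RNA gene repeat, the 2-micron plasmid and the 5 mitochondrial regions. Without a mean-variance trend the fit gave 4 higher and 3 lower.

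**Figure D2:**
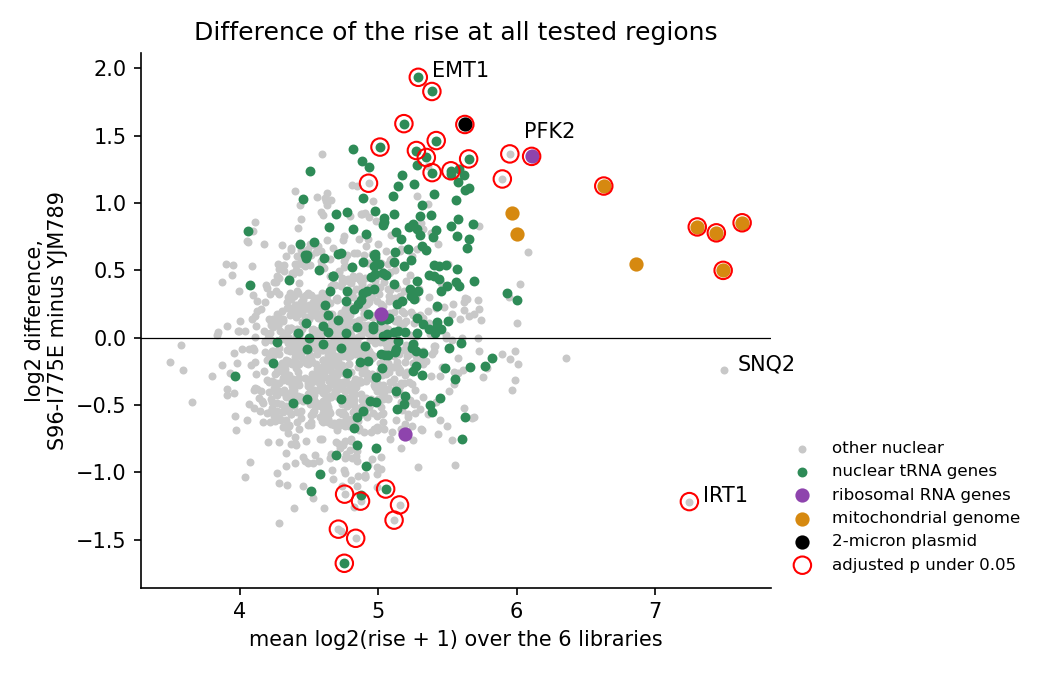
Difference of the rise at 1350 tested regions: the mean log2(rise + 1) of the 6 libraries (horizontal axis) against the log2 difference, S96-I775E minus YJM789 (vertical axis), coloured by class, with red rings at adjusted p under 0.05. IRT1 stands apart at −1.22 among regions of high rise, most ringed points above 0 are tRNA genes or mitochondrial regions, and SNQ2 lies at −0.24.

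Regions at nuclear tRNA genes had a larger rise for S96-I775E as a class. These genes are transcribed by RNA polymerase III into the adaptors of translation. Of 208 tested tRNA regions, 149 had a positive and 59 a negative difference, 10 were higher and 2 lower, and the median log2 difference was 0.35. Over all regions 45.4% were positive, 1.48% were higher, 0.667% were lower and the median was −0.05. The median rise of these regions in a library was 38.7, 36.3 and 39.9 for S96-I775E, against 28.2, 28.7 and 30.6 for YJM789. Over the 1130 other nuclear regions the order was the opposite, with medians of 23.9, 24.8 and 23.8 for S96-I775E, against 25.7, 26.9 and 26.9 for YJM789. Neither pair of groups overlapped, and each exact permutation test gave p = 0.1, the smallest possible.

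Set against the other nuclear regions of the same library, the tRNA median was 1.62, 1.47 and 1.67 times as high for S96-I775E, against 1.10, 1.07 and 1.14 times for YJM789 (exact permutation p = 0.1). With the S96 allele in YPD this ratio was 1.08, 1.10 and 1.37. In 4NQO it was 1.40, 1.64 and 1.26 for S96-I775E, against 1.06, 1.27 and 1.42 for YJM789, and there the alleles overlapped (exact permutation p = 0.5). By amino acid, the median difference was highest for cysteine (0.65 over 4 regions) and valine (0.65 over 14), and it was negative for phenylalanine (−0.05 over 7) and glutamine (−0.08 over 7). All 9 alanine tRNA regions were positive, with none past the test.

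**Figure D3:**
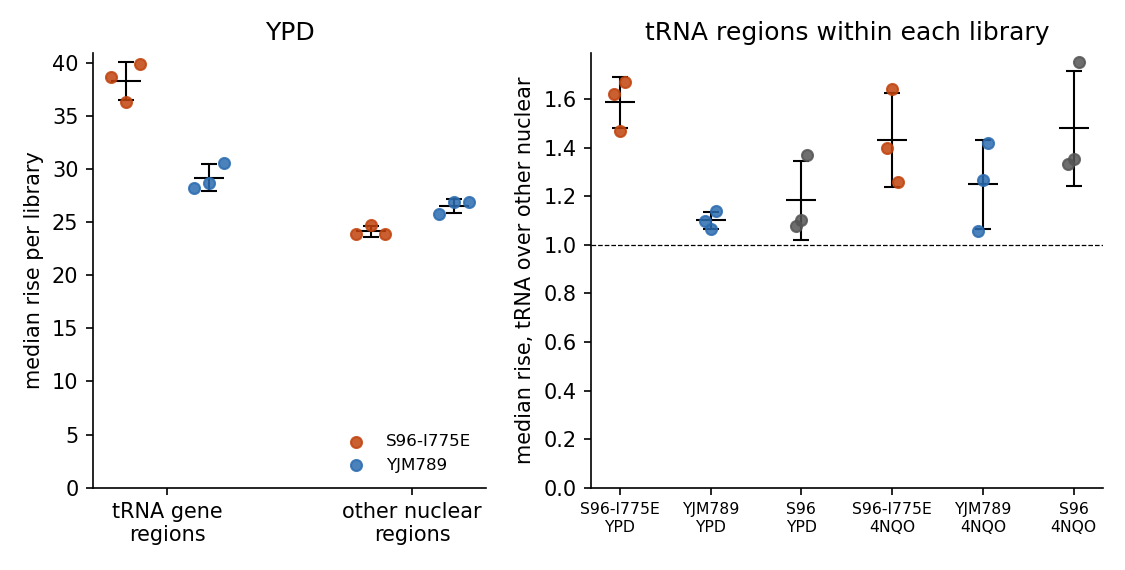
Left, the median rise per library in YPD over 208 tRNA gene regions and 1130 other nuclear regions, S96-I775E left of YJM789; right, the ratio of both medians in each library of the 6 allele and medium groups, with a dashed line at 1. Bars are the mean and SD of n = 3 libraries; the S96-I775E libraries in YPD lie at 1.47 to 1.67 and the YJM789 libraries in YPD at 1.07 to 1.14.

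The 3 tRNA genes with the lowest adjusted p among those higher for S96-I775E are shown 5′ to 3′ as transcribed, in the RefSeq R64 sequence. Capitals mark GTTCGA, any 2 letters and C, the core of the internal B box that binds the RNA polymerase III factor TFIIIC, searched on the gene's strand. Of 275 nuclear tRNA genes, 200 (72.7%) hold these letters.
EMT1: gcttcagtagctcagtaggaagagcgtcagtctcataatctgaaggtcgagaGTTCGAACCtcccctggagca
YNCN0015W: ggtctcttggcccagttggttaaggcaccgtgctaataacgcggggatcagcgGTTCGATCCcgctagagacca
YNCB0017C: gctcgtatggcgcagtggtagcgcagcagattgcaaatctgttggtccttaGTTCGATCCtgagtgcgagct

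EMT1, at chrIV:1175829-1175901 on the plus strand, encodes the elongator methionine tRNA, and its median strongest point, 1175764, lay outside the gene. Its region had a rise of 75.2, 62.4 and 91.4 for S96-I775E, against 28.3, 10.97 and 21.9 for YJM789, a log2 difference of 1.93 ± 0.34 (adjusted p = 0.000719, limma). Its strongest point was at 71.8 ± 21.0 for S96-I775E and 37.3 ± 11.1 for YJM789, and its surroundings were at −4.49 ± 6.47 for S96-I775E and 16.9 ± 2.81 for YJM789 (SD, n = 3). Every S96-I775E library was above every YJM789 library, and EMT1 had a MACS2 peak in 2 of 3 S96-I775E libraries and in 0 of 3 YJM789 libraries. YNCN0015W, an isoleucine tRNA gene at chrXIV:602312-602385 on the plus strand, had 60.5, 80.9 and 69.3 for S96-I775E, against 34.4, 25.6 and 27.5 for YJM789 (1.24 ± 0.28, adjusted p = 0.0150, limma). YNCB0017C, a cysteine tRNA gene at chrII:643007-643078 on the minus strand, had 69.1, 62.4 and 74.6 for S96-I775E, against 16.7 and 20.7 for YJM789, whose first library has no value there (1.83 ± 0.43, adjusted p = 0.0225, limma). At this gene the strongest point itself was 65.2 ± 7.84 for S96-I775E (SD, n = 3) and 61.0 ± 1.697 for YJM789 (SD, n = 2), and the difference lay in the surroundings, −3.43 for S96-I775E and 42.3 for YJM789.

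The other higher tRNA regions were at genes for histidine (YNCH0001W), asparagine (YNCO0018W), tryptophan (YNCK0010W), leucine (YNCL0049C), serine (YNCD0019C) and, in a pair, valine (YNCE0023W and YNCM0023C). Their log2 differences ran between 1.23 for YNCE0023W and 1.59 for YNCL0049C. The 2 lower tRNA regions were at a lysine gene, YNCI0007C, by the promoter of the ubiquitin ligase gene SSM4 (−1.68 ± 0.43), and at a cysteine gene, YNCG0030C, by a Ty element (−1.12 ± 0.30), with adjusted p-values of 0.0362 and 0.0444 by limma.

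Of the 3 remaining nuclear regions that were higher, the body of PFK2, which encodes the beta subunit of the glycolytic enzyme phosphofructokinase, had a rise of 86.2, 120 and 92.0 for S96-I775E, against 35.4, 46.9 and 32.0 for YJM789. All S96-I775E libraries were above all YJM789 libraries, by a log2 difference of 1.36 ± 0.24 (adjusted p = 0.000719, limma). Its strongest point was at 52.8 ± 16.4 for S96-I775E and 18.7 ± 5.93 for YJM789, and its surroundings were at −46.5 ± 2.39 for S96-I775E and −19.4 ± 3.92 for YJM789 (SD, n = 3). No MACS2 peak was listed there in any of the 6 libraries. A region nearest to IMD2, the gene of an inosine monophosphate dehydrogenase, at chrVIII:556144-557249 had 80.1, 105 and 82.8 for S96-I775E, against 47.7, 33.5 and 36.1 for YJM789 (1.18 ± 0.25, adjusted p = 0.00868, limma). Its strongest point was at 85.3 for S96-I775E and 12.6 for YJM789, and its surroundings were at −4.01 for S96-I775E and −26.4 for YJM789. MACS2 listed a ChIP peak there in 1 S96-I775E library and input above ChIP in 2 YJM789 libraries. The YNR077C promoter, near the end of chromosome XIV, had 65.5, 37.8 and 35.1 for S96-I775E, against 16.7, 22.6 and 19.6 for YJM789 (1.15 ± 0.29, adjusted p = 0.0334, limma).

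The rise was also larger for S96-I775E at 5 mitochondrial regions, the 2-micron plasmid and the ribosomal RNA gene repeat, and at each of them the surroundings were lower for S96-I775E. At COX1, the mitochondrial gene of a cytochrome oxidase subunit, the rise was 264, 269 and 264 for S96-I775E, against 159, 132 and 150 for YJM789 (0.85 ± 0.08, adjusted p = 5.40e-08, limma). The strongest point was at −5.83 ± 2.46 for S96-I775E and −10.8 ± 0.153 for YJM789, with more input than ChIP in both, and the surroundings were at −271 ± 5.49 for S96-I775E and −158 ± 13.6 for YJM789 (SD, n = 3). MACS2 called input above ChIP at COX1 in 3 of 3 libraries of each allele and listed no ChIP peak. The rise was also higher at the cytochrome b gene COB (0.78), the homing endonuclease gene SCEI (0.82), the large ribosomal RNA gene 21S_RRNA (1.13) and Q0255 (0.50), each with lower surroundings for S96-I775E in every library. Their strongest points differed in order: higher for S96-I775E at COB and 21S_RRNA, lower at SCEI (−26.7 for S96-I775E and −9.83 for YJM789) and overlapping at Q0255. The median position of the strongest point lay at or near an edge of each of these 5 regions. At COX1 it was 23902.5 in a region of 13645 to 23903, and at COB 36411 in 36411 to 42791. It was 57966.5 at 21S_RRNA (57948 to 60228), 60354 at SCEI (60334 to 62351) and 76101 at Q0255 (73567 to 76101). All 8 tested mitochondrial regions had a positive log2 difference, 5 of them past the test.

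The 2-micron plasmid had a rise of 74.7, 84.5 and 95.5 for S96-I775E, against 20.9, 32.2 and 31.0 for YJM789 (1.58 ± 0.23, adjusted p = 4.97e-05, limma). Its strongest point was at 13.4 ± 8.50 for S96-I775E and 33.7 ± 35.5 for YJM789, which overlapped. Its surroundings were at −71.5 ± 2.90 for S96-I775E and 5.68 ± 29.3 for YJM789. MACS2 listed more input than ChIP at the plasmid for 3 of 3 S96-I775E libraries and for 0 of 3 YJM789 libraries. The ribosomal RNA gene repeat, a region named after RDN5-1 at chrXII:451468-468838, had a rise of 90.8, 129 and 111 for S96-I775E, against 40.8, 42.5 and 43.6 for YJM789 (1.35 ± 0.25, adjusted p = 0.00151, limma). Its strongest points overlapped too, at 43.5 ± 16.8 for S96-I775E and 53.97 ± 30.7 for YJM789. Its surroundings were at −66.6 ± 2.15 for S96-I775E and 11.6 ± 29.5 for YJM789. More input than ChIP was listed at this repeat for 3 of 3 S96-I775E libraries and for 1 of 3 YJM789 libraries. Of 3 tested regions that overlap ribosomal RNA genes it was the 1 past the test; YLR159W had a log2 difference of −0.71 ± 0.36 (adjusted p = 0.344, limma).

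The rise of these 29 regions was therefore split into its terms. All 29 were chosen by the rise, which holds both terms, so the counts below are a description with no test. Over all 1350 tested regions, coverage without subtracting the surroundings gave 105 higher and 8 lower by limma. The median surroundings over nuclear regions were 5.37, 7.95 and 4.20 for S96-I775E, against −0.283, −6.72 and −3.35 for YJM789. How often either term did not overlap over all tested regions is not given here. The counts below therefore do not set these regions apart from others. At all 7 mitochondrial, plasmid and ribosomal RNA regions the surroundings were lower for S96-I775E in every library, and the strongest point was higher without overlap at 3 of the 7 (COX1, COB and 21S_RRNA) and lower without overlap at SCEI. At the 13 other nuclear regions that were higher, the strongest point was higher without overlap at 12, YNCB0017C being the exception. The surroundings were also lower for S96-I775E without overlap at 4 of these 13, EMT1, PFK2, YNCL0049C and YNCB0017C, so the rise there differs through this term as well. Among the 9 lower regions the strongest point was lower without overlap at 3, IRT1, TIP1 and the region near YHR007C-A. Near YHR007C-A it was −16.9 for S96-I775E and 3.23 for YJM789, and MACS2 called input above ChIP in 2 YJM789 libraries. The surroundings there were higher for S96-I775E without overlap, at −40.5 against −50.6. At the other 6 lower regions the strongest points overlapped, and the surroundings were likewise higher for S96-I775E without overlap.

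**Figure D4:**
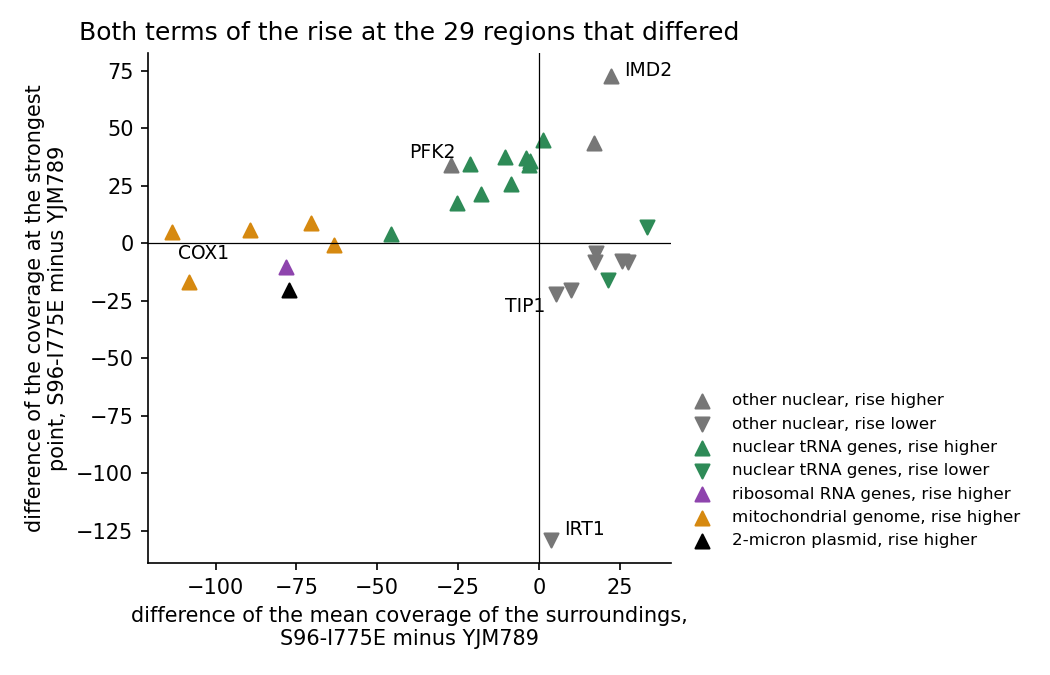
The 29 regions that differed, by the difference of the mean surroundings (horizontal axis) and of the strongest point (vertical axis), both S96-I775E minus YJM789 in coverage units; triangles point up where the rise was higher for S96-I775E and down where it was lower. IRT1 lies at −129 on the vertical and 3.73 on the horizontal axis, and the mitochondrial, plasmid and ribosomal RNA regions lie far to the left near 0 on the vertical axis.

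Among the lower regions other than IRT1 and the tRNA genes, the body of TIP1, the gene of a cell wall mannoprotein, had a rise of 19.3, 12.4 and 13.99 for S96-I775E, against 36.5, 54.7 and 36.8 for YJM789 (−1.42 ± 0.32, adjusted p = 0.0146, limma). Its strongest point was at 26.4 ± 6.62 for S96-I775E and 48.4 ± 7.54 for YJM789. The promoter shared by GCV2, which encodes a subunit of glycine decarboxylase, and MRPS17, a mitochondrial ribosomal protein gene, had 17.4, 16.0 and 31.4 for S96-I775E, against 69.0, 48.1 and 48.5 for YJM789 (−1.36 ± 0.32, adjusted p = 0.0202, limma). There the strongest points overlapped, at 22.2 ± 6.99 for S96-I775E and 30.0 ± 6.09 for YJM789. The remaining calls were the bodies of YHC3 (−1.49), YJL163C (−1.21) and the carnitine acetyltransferase gene YAT1 (−1.16), and a region near YHR007C-A (−1.24), with adjusted p-values between 0.0408 and 0.0455 by limma. YHC3 has no value in the first YJM789 library.

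Calls by gene class are to be read beside the 2.15% of all regions that passed in either direction. Ribosomal protein genes had 0 of 90 regions past the test, with 45 positive and a median of 0.01. Small nuclear and nucleolar RNA genes had 0 of 36, with 23 positive and a median of 0.11. Of 20 glycolysis regions 1 was higher, PFK2, and of 9 regions of sulfur and one-carbon metabolism 1 was lower, GCV2. The lists of translation factors (16 tested), cell wall genes (17), respiration (4) and stress genes (5) had 0 calls each. TIP1 was not counted in the cell wall list, and COX1 and COB were counted with the mitochondrial genome, not with respiration. Among regions that did not pass, the ribosomal protein gene RPL19B had −1.10 ± 0.31 (adjusted p = 0.0591, limma). The BMT6 promoter had −1.19 ± 0.36 (adjusted p = 0.0725, limma) and the snoRNA region SNR52 had 1.27 ± 0.39 (adjusted p = 0.0817, limma). Gene bodies without a tRNA gene had 1 higher and 5 lower of 735, and promoters without one had 1 higher and 1 lower of 277.

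Counted by MACS2 peaks, 36 regions were bound in S96-I775E and 4 in YJM789, where bound means that MACS2 listed a peak for 2 or more of the 3 libraries. All 4 YJM789 regions, IRT1, SNQ2, SNG1 and APD1, were among the 36, which is 100% of the shorter list and 11.1% of the longer. Peaks per library numbered 34, 113 and 63 for S96-I775E, against 6, 7 and 12 for YJM789 (exact permutation p = 0.1). The longer list did not mean a larger rise at each of its regions. Of the 35 tested, 2 were higher (EMT1 and YNCO0018W) and 1 was lower (IRT1), beside 1.48% higher and 0.667% lower over all 1350 tested regions. The log2 difference was positive at 26 of the 35 and negative at 9, with a median of 0.31. Over all tested regions 45.4% were positive and the median was −0.05. Since peaks in S96-I775E chose these regions, their counts are a description with no test. In 31 of the 36 no YJM789 library had a peak. Without S96-I775E replicate 1 the count for that allele was 21, and without replicate 2 or 3 it was 13; at a fold of at least 2 it was 2, as for YJM789.

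Of the 36 bound regions, 18 had a merged peak that overlapped a nuclear tRNA gene. Over all 1711 regions, 218 were at such a gene, counted by the wider region. At YNCE0005W the peak stopped short of the gene although the wider region of the table covers it, so it is counted here with those without a tRNA gene. Another 7 were named after a ribosomal protein gene, RPL3 only as the nearest gene. Of all 1711 regions 118 were at such a gene, counted by promoter or gene body only, so the rules differ. The rest included SNR30, SNR190, the translation initiation gene CDC33 and the nucleolar protein gene NSR1. Their mean folds ran between 1.55 at RPS14B and 3.38 at SNQ2, with IRT1 second at 2.29 and RPL29 next at 1.95. A match to the Yrr1 pattern lay within the 200-base window at 6 of the 18 bound regions whose peak overlapped no tRNA gene (33.3%), the 5 sites printed above and NSR1, and at 0 of the 18 whose peak overlapped one. Among nuclear regions that differed, 2 of 14 higher and 1 of 9 lower windows held a match, beside 6.80% of all nuclear windows.

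Library-wide values also moved with the allele. MACS2 peaks with input above ChIP in the nuclear genome numbered 25, 21 and 20 for S96-I775E, against 114, 152 and 130 for YJM789. Regions without a rise value numbered 85, 70 and 80 for S96-I775E, against 115, 188 and 145 for YJM789. The median surroundings over nuclear regions were 5.37, 7.95 and 4.20 for S96-I775E, against −0.283, −6.72 and −3.35 for YJM789. None of these groups overlapped, with an exact permutation p of 0.1 each, and their part in the counts of bound regions, tRNA regions and other calls was not tested. The median rise over all tested regions was 25.7 ± 0.378 for S96-I775E and 26.9 ± 0.697 for YJM789 (SD, n = 3). Read depth is unknown here, and the lowest background pileup listed by MACS2 was 43.4 in each S96-I775E library and 48.0, 43.5 and 44.2 in the YJM789 libraries.

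The sister cultures in 4NQO give the same alleles in other libraries, with another input each. In 4NQO, 9 of 1350 regions (0.667%) were higher for S96-I775E and 43 (3.19%) lower. At IRT1 the rise in 4NQO was 111, 107 and 155 for S96-I775E, against 237, 222 and 270 for YJM789, again without overlap, with a log2 difference of −0.97 ± 0.11 (adjusted p = 2.10e-06, limma). The difference between media at IRT1 was −0.25 and did not pass (adjusted p = 0.452, limma).

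Of the 20 regions higher in YPD, 9 had the same sign in 4NQO, and COB and 21S_RRNA were called in the same direction. Of the 9 lower regions 5 had the same sign, and IRT1 was called. Over all tested regions 52.9% had the same sign. EMT1, higher for S96-I775E in YPD, had 62.6, 36.0 and 34.9 for S96-I775E in 4NQO, against 75.0, 75.7 and 85.1 for YJM789 in 4NQO, a log2 difference of −0.86 ± 0.34 that did not pass (adjusted p = 0.146, limma). PFK2 was lower past the test in 4NQO, with 44.0, 47.7 and 43.8 for S96-I775E, against 110, 75.9 and 71.9 for YJM789 (−0.89 ± 0.24, adjusted p = 0.0323, limma). The SNG1 promoter, not called in YPD, had 55.1, 36.7 and 59.5 for S96-I775E in 4NQO, against 136, 140 and 122.5 for YJM789 (−1.41 ± 0.21, adjusted p = 0.000192, limma). At SNG1 the difference between media was 1.02 and did not pass (adjusted p = 0.0707, limma).

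**Figure D5:**
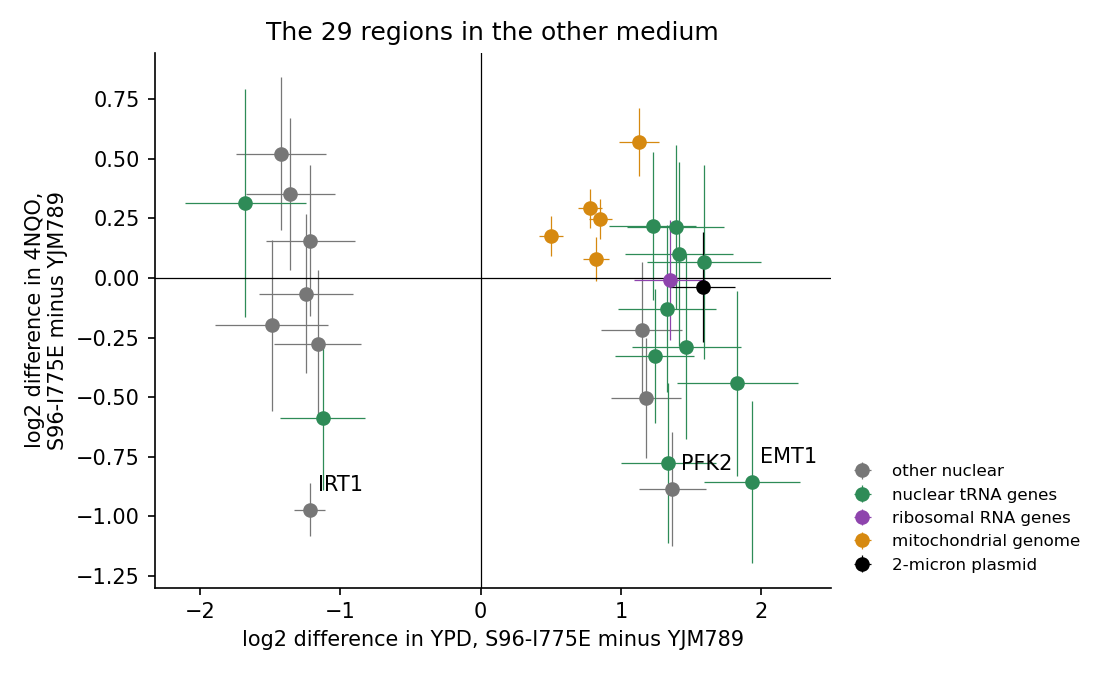
The 29 regions that differed in YPD: log2 difference of the rise, S96-I775E minus YJM789, in YPD (horizontal axis) and in 4NQO (vertical axis), with standard errors as bars and colours by class. IRT1 lies at −1.22 and −0.97, while EMT1 (1.93 and −0.86) and PFK2 (1.36 and −0.89) have opposite signs.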

How the data were processed

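ChIP libraries of S96-I775E and YJM789 in YPD were sequenced on an Illumina HiSeq, per the labels. MACS2 2.1.0, Bowtie2 2.2.3 and CASAVA 1.7 are listed in the submitters' processing notes, with the build sacCer3 and without steps. Deposited MACS2 lists, per library against its group's input, hold a pileup signal, a fold ratio and −log10 p and q (lowest 1.30), per the file headers. The authors' region table holds the rise, a signal, with the coverage score of strongest point and surroundings; it has 2 parameter sets, mn and m2, not explained, and mn was used. Read totals are not in the tables used here, so no counting interval is given, and 12 further columns of values were not used.

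From the deposited signal, log2(rise + 1) was fitted with limma 3.58.1 in R 4.3.3 (trend) over all 18 ChIP libraries in 6 groups, for 1350 of 1711 regions with at least 2 values per group (361 untested), with Benjamini-Hochberg adjustment at 0.05. The fit was tested on simulated data. Regions are named by the gene whose start codon lies within 500 bp downstream (promoter), the gene they lie in (body) or the nearest gene (near). Peaks overlapping by 1 bp were merged. The genes named are those at YRR1, SNQ2, SNG1, IRT1 and other drug resistance genes, the largest and most stable calls, the strongest bound regions and the 3 lowest adjusted p of each class; of 36 drug resistance genes 35 were in the annotation. NSR1, SNR30, SNR190, CDC33 and RPS14B were chosen after their values were seen. Members and lists were chosen with earlier results of these data known. Alternatives are given in the closing section.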

Additional observations from a re-analysis of the deposited data

Results flagged for a closer look

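These regions had a difference between S96-I775E and YJM789 that itself differed between YPD and 4NQO, by the interaction term of the limma fit adjusted over 1350 regions, where 27 (2%) passed. Each value is the YPD difference minus the 4NQO difference on the log2 scale. Only regions already named for other reasons are listed, among them 11 higher and 2 lower in YPD, and the rest of the 27 are not. Among those listed, the largest was at EMT1, 2.79 (adjusted p = 0.00224), followed by YNCB0017C at 2.27 (adjusted p = 0.0385) and PFK2 at 2.25 (adjusted p = 0.000480). RPL29, a ribosomal protein gene, had 2.24 (adjusted p = 0.0335), from 0.85 in YPD and −1.38 in 4NQO. YNCM0023C had 2.11 (adjusted p = 0.0171) and the body of TPI1, the gene of triosephosphate isomerase, had 2.099 (adjusted p = 0.00739), from 0.49 in YPD and −1.61 in 4NQO. The region near IMD2 had 1.68 (adjusted p = 0.0107), the 2-micron plasmid 1.62 (adjusted p = 0.00767) and YNCN0015W 1.57 (adjusted p = 0.0377). The ribosomal RNA gene region at RDN5-1 had 1.35 (adjusted p = 0.0398). The mitochondrial regions SCEI, COX1 and COB had 0.74 (adjusted p = 0.00224), 0.60 (adjusted p = 0.00739) and 0.49 (adjusted p = 0.0300). In the other direction, TIP1 had −1.94 (adjusted p = 0.0218) and GCV2 had −1.71 (adjusted p = 0.0398). The groups in each medium have their own inputs, so input and medium cannot be told apart here.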

How the results depend on the processing

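The counts of 20 higher and 9 lower regions depend on the processing, and at 29 regions the cause of a lost call was not tested. Coverage without subtracting the surroundings gave 105 higher, medians set equal 31 higher, limma without the trend 4 higher and 3 lower, and leaving out mitochondrial and 2-micron regions 11 higher and 4 lower. The linear rise gave 3 lower and the m2 set 2 lower. The ChIP numbers gave no sign of pairing the samples. Deviations of same-numbered libraries correlated at 0.003, −0.02 and 0.008, and 2 of 6 libraries correlated best with their own number. A replicate block, fitted to S96-I775E and YJM789 in YPD alone, gave 59 higher and 29 lower. These counts do not bear on whether the numbers pair the samples. Leaving out 1 library at a time gave 9 to 18 higher (9 without YJM789 replicate 2) and 1 to 4 lower (1 without YJM789 replicate 2); 10 of the 29 calls, IRT1, EMT1 and PFK2 among them, kept their side with each library left out, and IRT1, EMT1 and PFK2 kept it under all 17 alternatives. Without the surroundings subtracted, SCEI (−16.9), the 2-micron plasmid (−20.3), Q0255 (−0.67), RDN5-1 (−10.4), YNCG0030C (6.97) and NDI1 (24.3) changed sign, in coverage units; YNCG0030C (0.76) did so in the m2 set and YHC3 (0.42) with empty values as 0, on the log2 scale. NDI1, a mitochondrial NADH dehydrogenase gene, was not called in the rise (−0.38). SNQ2 passed by limma in both fits of S96-I775E and YJM789 in YPD alone, and in none of the other 15. The adjusted p was 0.0435 without the replicate block and 0.00865 with it, with the same log2 difference of −0.24. A fold of at least 2 left 2 bound regions for S96-I775E and 2 for YJM789, and leaving out 1 library left 13 to 21 for S96-I775E (13 without replicate 2 or 3, 21 without replicate 1) and 3 to 4 for YJM789. Unknown depth and 1 input per group limit every value.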
